A study of Mus musculus with 4 samples.

Results

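The genes described here are 39 genes of DNA replication and mitosis: 26 that act in copying the genome or in starting that process, and 13 that act in or mark cell division. They were given as a list of symbols, and all 39 were found in the GENCODE M21 annotation, among 21755 protein-coding genes on the autosomes and X. Open chromatin at these genes was read from DNase-seq, in which the nuclease DNase I cuts accessible DNA in nuclei and the cut ends are sequenced. The cells were mouse acute myeloid leukemia cells of strain C57BL/6J, labelled as in vitro differentiated cells, with no treatment, genotype, time point or control named, and age and sex not given. The 4 libraries form 2 biological replicates of 2 technical replicates each. The labels give 1 donor for all of them, so the biological replicates are not known to be different animals.

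Each biological replicate had 1 list of peaks, which are windows of 150 bp, and 1 list of hotspots, which are wider regions dense in cuts. The replicate 1 list held 236802 peaks and the replicate 2 list 67564, a ratio of 3.50 between the lists after repeated entries were removed. With 1 list per replicate no test between groups could be made, so counts, scores and ranks are given as descriptions, beside the same quantity over all coding genes. The myeloid label was checked on marker genes. A promoter peak found in both lists was present at 9 of 10 myeloid genes, against 58.2% of all coding genes. The other counts were 1 of 3 B cell, 0 of 3 T cell, 1 of 3 erythroid, 1 of 3 epithelial, 1 of 3 fibroblast and 0 of 2 hepatocyte genes. In the replicate 1 list alone, 71.1% of coding genes had a promoter peak. There the marker counts were 10, 2, 1, 2, 2, 1 and 0 in the same order. The part of other cell types in the values below was not tested.

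Before a cell copies its DNA, the origin recognition complex, Cdc6 and Cdt1 load the Mcm2 to Mcm7 ring onto chromatin, and the ring later becomes the replicative helicase together with Cdc45 and the GINS complex. Many genes of this machinery are known targets of E2F transcription factors, which RB family proteins hold in check until the cell commits to S phase. Genes of mitosis are known to be expressed later, and many carry a cell cycle genes homology region (CHR) near the start, bound by complexes that contain LIN54, along with CCAAT boxes bound by the trimeric factor NF-Y. Leukemia cells in culture divide, and replication and mitosis genes are often used as markers of proliferation in blood cells.

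The sequences of 8 main promoter peaks show what these open sites hold. The main promoter peak of a gene is the replicate 1 peak within 1 kb of any annotated transcript start that overlaps a replicate 2 peak by at least 1 bp, and, where there are several, the one with the highest mean rank over both lists. Each is written 5′ to 3′ on the strand of the gene, from mm10, and where a peak runs further it stops 50 bases past the start nearest the peak. Capitals mark exact matches on either strand to the motifs searched: E2F (TTTCCCGC, TTTCGCGC, TTTGCCGC or TTTGGCGC), CHR (TTTGAA), NF-Y (CCAAT followed by CA, CG, GA or GG), ETS (CCGGAAG), SP/KLF (GGGGCGG), CRE (TGACGTCA), E-box (CACGTG) and NRF1. Adjacent SP/KLF words and the inverted E2F pairs can overlap, and each place counts. A match is a description of the letters, not of a bound factor.

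The strongest main promoter peak of each of 4 roles and the weakest of all 39 come first, as the ends of the range. They lie at chr8:120589296-120589445 for Gins2, chr7:44548856-44549005 for Pold1, chr13:100786576-100786725 for Ccnb1, chr1:88277584-88277685 for Hjurp and chr5:30073568-30073705 for Tyms. All 5 genes are on the minus strand.
Gins2 promoter peak: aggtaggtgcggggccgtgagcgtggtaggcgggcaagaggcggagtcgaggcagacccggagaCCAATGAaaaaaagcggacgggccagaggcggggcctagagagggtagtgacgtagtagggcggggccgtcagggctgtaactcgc
Pold1 promoter peak: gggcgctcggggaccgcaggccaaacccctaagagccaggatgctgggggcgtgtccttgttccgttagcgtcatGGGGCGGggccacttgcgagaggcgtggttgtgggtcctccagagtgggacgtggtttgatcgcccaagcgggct
Ccnb1 promoter peak: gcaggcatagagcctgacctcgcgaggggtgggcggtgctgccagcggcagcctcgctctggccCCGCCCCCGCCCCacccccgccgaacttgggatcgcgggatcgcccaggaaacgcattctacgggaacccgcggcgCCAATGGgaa
Hjurp promoter peak: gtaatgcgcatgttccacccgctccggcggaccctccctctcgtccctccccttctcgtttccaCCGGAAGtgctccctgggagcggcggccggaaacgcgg
Tyms promoter peak: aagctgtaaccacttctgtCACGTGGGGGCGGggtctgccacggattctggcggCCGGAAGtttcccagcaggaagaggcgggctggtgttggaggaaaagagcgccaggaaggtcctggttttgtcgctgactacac
None of these 5 stretches held an E2F or CHR match as printed. Gins2 and Ccnb1 each held 1 NF-Y match, and Ccnb1 also held 2 SP/KLF matches. Pold1 held 1 SP/KLF match, and Hjurp held 1 ETS match. The whole Hjurp peak, which runs to 88277536, held a CHR match past the last base printed. The weakest peak, that of Tyms, held an E-box that runs straight into an SP/KLF word, and an ETS match.

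The next 3 peaks held an E2F or CHR match beside another motif, and are among the strongest of that kind. They lie at chr11:99024256-99024405 for Top2a, chr10:69352916-69353065 for Cdk1 and chr16:15637396-15637545 for Mcm4 on the minus strand.
Top2a promoter peak: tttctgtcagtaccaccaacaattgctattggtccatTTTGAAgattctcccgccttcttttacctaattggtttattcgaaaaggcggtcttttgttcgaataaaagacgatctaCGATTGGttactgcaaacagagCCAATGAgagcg
Cdk1 promoter peak: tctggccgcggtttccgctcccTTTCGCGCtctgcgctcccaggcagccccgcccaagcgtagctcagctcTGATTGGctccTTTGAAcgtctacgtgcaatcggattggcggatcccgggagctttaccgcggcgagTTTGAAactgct
Mcm4 promoter peak: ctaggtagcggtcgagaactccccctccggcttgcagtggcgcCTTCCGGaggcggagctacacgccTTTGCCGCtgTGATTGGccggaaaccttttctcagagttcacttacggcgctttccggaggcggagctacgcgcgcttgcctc
In Mcm4 the E2F match at bases 68 to 75 was followed by an NF-Y match at 78 to 84. Cdk1 held an E2F match, an NF-Y match at bases 72 to 78 and a CHR match at 83 to 88, with a second CHR match at 139 to 144. Top2a held 1 CHR match and 2 NF-Y matches.

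The peak window covers only part of the sequence around a start, so 4 windows of 300 bp, from 250 bases before the start to 50 bases from it, show the fuller arrangement. These 4 genes were chosen after their matches were seen. The windows lie at chr8:75109319-75109618 for Mcm5 on the plus strand, and at chr1:128359615-128359914 for Mcm6, chr9:70421498-70421797 for Ccnb2 and chr2:172370486-172370785 for Aurka on the minus strand.
Mcm5 start window: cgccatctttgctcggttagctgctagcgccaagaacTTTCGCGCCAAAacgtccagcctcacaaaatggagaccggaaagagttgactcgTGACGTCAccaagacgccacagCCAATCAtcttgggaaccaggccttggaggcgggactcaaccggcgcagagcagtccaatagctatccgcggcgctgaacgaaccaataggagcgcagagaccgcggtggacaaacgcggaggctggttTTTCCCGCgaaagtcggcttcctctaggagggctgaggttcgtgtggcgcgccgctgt
Mcm6 start window: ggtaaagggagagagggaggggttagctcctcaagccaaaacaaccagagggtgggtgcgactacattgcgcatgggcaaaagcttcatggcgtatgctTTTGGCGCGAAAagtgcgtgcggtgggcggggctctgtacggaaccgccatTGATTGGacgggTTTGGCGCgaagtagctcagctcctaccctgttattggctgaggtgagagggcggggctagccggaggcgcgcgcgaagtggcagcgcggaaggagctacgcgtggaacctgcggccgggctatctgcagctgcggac
Ccnb2 start window: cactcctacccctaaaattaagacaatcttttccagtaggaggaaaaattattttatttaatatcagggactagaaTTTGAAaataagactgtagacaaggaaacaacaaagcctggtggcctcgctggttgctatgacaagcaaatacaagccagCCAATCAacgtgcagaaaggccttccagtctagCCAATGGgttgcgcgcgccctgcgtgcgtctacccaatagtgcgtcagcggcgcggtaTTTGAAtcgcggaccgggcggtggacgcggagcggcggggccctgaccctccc
Aurka start window: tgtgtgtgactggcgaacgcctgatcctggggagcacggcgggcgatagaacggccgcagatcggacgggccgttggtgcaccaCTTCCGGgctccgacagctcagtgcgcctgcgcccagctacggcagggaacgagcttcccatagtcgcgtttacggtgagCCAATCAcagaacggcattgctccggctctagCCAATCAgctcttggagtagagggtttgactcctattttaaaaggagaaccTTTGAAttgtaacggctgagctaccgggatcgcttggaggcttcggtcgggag
Mcm5 held an E2F match at bases 38 to 45 that overlapped an inverted one at 42 to 49, and Mcm6 held the same arrangement at 100 to 107 and 104 to 111. Each had a further single E2F match, at bases 243 to 250 in Mcm5 and 163 to 170 in Mcm6. Ccnb2 and Aurka, a mitotic cyclin and a mitotic kinase, held 2 NF-Y matches each, followed by a CHR match at bases 248 to 253 in both.

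All 39 genes had an open promoter, meaning at least 1 promoter peak found in both lists, against 12658 of 21755 coding genes, 58.2%. Each of the 39 had a promoter peak in the replicate 1 list, where 71.1% of coding genes did, and in the replicate 2 list, where 58.8% did. Of the 39, 0 had a promoter peak in replicate 1 and none in replicate 2, a state seen in 12.5% of coding genes. Hotspots of both replicates also covered a promoter of all 39, against 58.9% of coding genes. The members had 118 promoter peaks in replicate 1 and 73 in replicate 2.

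The peaks were also high in both lists. The deposited score is a whole number that reached 150 in replicate 1 and 148 in replicate 2. The way it was computed was not given in the sources used here. Scores are therefore compared between genes within 1 list only. In replicate 1 the members ran from 122 to 150 with a median of 148, against a median of 145 over all open coding genes. In replicate 2 they ran from 44 to 134 with a median of 90, against 75. A score of 150, the ceiling of the replicate 1 list, was reached by 10 of 39 members, 25.6%, against 13.2% of open coding genes. Near this ceiling the replicate 1 scores separate the members little, and most of the order among them comes from replicate 2. The values come from bulk chromatin, in which the share of cells with an open site and how far it is open in each cell cannot be told apart.

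**Figure D1:**
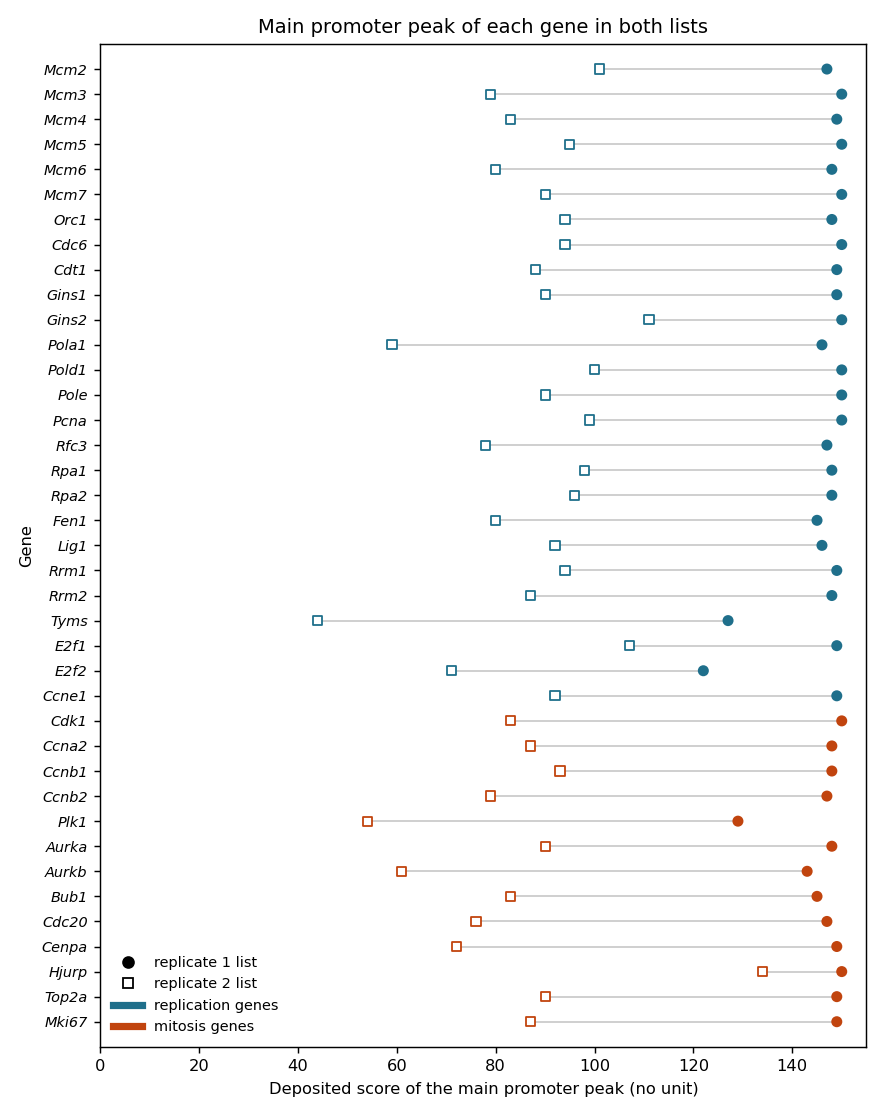
Deposited score of the main promoter peak (horizontal axis, no unit) of each of the 39 genes in the replicate 1 list (filled circles) and the replicate 2 list (open squares), with replication genes in blue and mitosis genes in orange. In replicate 1 all members lie between 122 and 150, while in replicate 2 they spread from 44 for Tyms to 134 for Hjurp.

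For a common scale, each main promoter peak was given a place: its percentile, by the mean of its rank in both lists, among the main promoter peaks of all 12658 open coding genes. The median member stood at 75.9, with quartiles of 58.8 and 85.2, where the median of all open genes is 50 by construction. A place of at least 75 was held by 24.8% of open genes and by 20 of the 39 members, 51.3%. These are called high places below. Only 5 members lay below the middle: Tyms, Plk1, E2f2, Aurkb and Pola1. Replication genes had a median place of 82.0 and 16 of 26 at high places. Mitosis genes had a median of 71.3 and 4 of 13 there.

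The genes that license origins and open the helix stood high as a role, with a median place of 81.8 over 11 genes and 8 of them at high places. Gins2, a subunit of the GINS complex that joins the Mcm ring, scored 150 in replicate 1 and 111 in replicate 2, a place of 99.7. Mcm5 scored 150 and 95, a place of 90.5, and Cdc6, the loading ATPase, scored 150 and 94, a place of 89.1. Among the ring's 6 subunits the order was Mcm5, Mcm2, Mcm7, Mcm4, Mcm3 and Mcm6, so that proteins of a single complex came from promoters of unequal place.

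The ring subunits below Mcm5 illustrate that spread. Mcm2 scored 147 and 101, a place of 87.0, and Mcm7 scored 150 and 90, a place of 82.8. Mcm4 scored 149 and 83, a place of 68.7, and Mcm3 scored 150 and 79, a place of 65.1. Mcm6 scored 148 and 80 and had the lowest place of the 11, 61.7. Mcm3 was above Mcm2 in replicate 1 and below it in replicate 2, so the lists order these genes differently. Of the remaining loading genes, Orc1, the largest subunit of the origin recognition complex, scored 148 and 94, a place of 81.8. Cdt1, which brings the ring to origins, scored 149 and 88, a place of 76.7. Gins1, another GINS subunit, scored 149 and 90, a place of 79.5. The centre of that peak was at −629.5 bp from the nearest Gins1 start. Abhd12 starts on the other strand, 659 bp from the same Gins1 start. The place therefore cannot be assigned to Gins1 alone. The places of Orc1, Cdt1 and Gins1 lay in the same upper range as Mcm7.

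The polymerase, fork and nucleotide genes had a median place of 78.3 over 12 genes, with 6 at high places. Pold1, the catalytic subunit of the lagging strand polymerase delta, scored 150 and 100, a place of 96.2. Pcna, the sliding clamp that holds polymerases on DNA, scored 150 and 99, a place of 95.3. Pole, the catalytic subunit of the leading strand polymerase epsilon, scored 150 and 90, a place of 82.8. Pola1, the catalytic subunit of the polymerase that extends primers, scored 146 and 59, a place of 35.1. The catalytic subunits of the 3 replicative polymerases therefore lay far apart, with Pola1 low chiefly through replicate 2.

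At the fork, the single-strand binding subunits were alike: Rpa1 scored 148 and 98, a place of 87.2, and Rpa2 scored 148 and 96, a place of 84.9. Rfc3, a subunit of the loader that places Pcna on DNA, scored 147 and 78, a place of 56.9. Fen1, the nuclease that trims the flaps of Okazaki fragments, scored 145 and 80, a place of 56.0. Lig1, the ligase that seals them, scored 146 and 92, a place of 73.8. The genes that finish Okazaki fragments thus lay below the polymerase delta and clamp genes in both lists.

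Among the genes that supply nucleotides, the ribonucleotide reductase subunits lay above the middle of open genes and the thymidylate synthase gene below it. Rrm1, the large subunit, scored 149 and 94, a place of 85.4, and Rrm2, the small subunit, scored 148 and 87, a place of 72.1. Tyms, which makes the thymidine nucleotide, scored 127 and 44, a place of 17.5. It had the lowest score of all members in replicate 2 and the second lowest in replicate 1.

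The regulators of S phase onset were split. E2f1, an activating E2F factor, scored 149 and 107, a place of 96.7. Ccne1, the cyclin that drives entry into S phase with Cdk2, scored 149 and 92, a place of 82.2. E2f2, another activating E2F factor, had its main peak inside the gene, 7696.5 bp from the start of the gene and at −692.5 bp from the nearest annotated start, with scores of 122 and 71 and a place of 29.0. Peaks at the start of E2f2 itself scored 129 and 135 in replicate 1 and 48 and 47 in replicate 2. The E2f1 promoter thus scored above every promoter peak of E2f2 in both lists.

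Cyclins and mitotic kinases had a median place of 71.3 over 7 genes, with 2 at high places. Ccnb1, a B-type cyclin that activates Cdk1 for mitosis, scored 148 and 93, a place of 80.4, while Ccnb2, the other B-type cyclin here, scored 147 and 79, a place of 58.2. Ccna2, the cyclin of S and G2 phases, scored 148 and 87, a place of 72.1. Cdk1, the kinase these cyclins activate, scored 150 and 83, a place of 71.3. The kinases that follow them ran from the upper range to among the weakest. Aurka, which acts at spindle poles, scored 148 and 90, a place of 75.9. Aurkb, the kinase of the chromosomal passenger complex, scored 143 and 61, a place of 34.7. Plk1, which acts at several steps of mitosis, scored 129 and 54, a place of 23.5. Plk1 and Aurkb held the 2 lowest scores of the mitosis genes in both lists.

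The checkpoint, centromere and chromosome genes had a median place of 67.2 over 6 genes. Hjurp, the chaperone that deposits the centromeric histone, had the strongest peak of all members, with scores of 150, tied at the ceiling, and 134 and a place that rounds to 100. Cenpa, the centromeric histone that it deposits, scored 149 and 72, a place of 53.8. The promoters of this chaperone and its client were thus at the top and near the middle of open genes. Top2a, the topoisomerase that untangles sister chromosomes, scored 149 and 90, a place of 79.5, and Mki67, which encodes the proliferation marker Ki-67, scored 149 and 87, a place that rounds to 75 and falls just short of it. Bub1, a spindle checkpoint kinase, scored 145 and 83, a place of 59.3. Cdc20, the activator of the anaphase-promoting complex that this checkpoint restrains, scored 147 and 76, a place of 54.5.

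**Figure D2:**
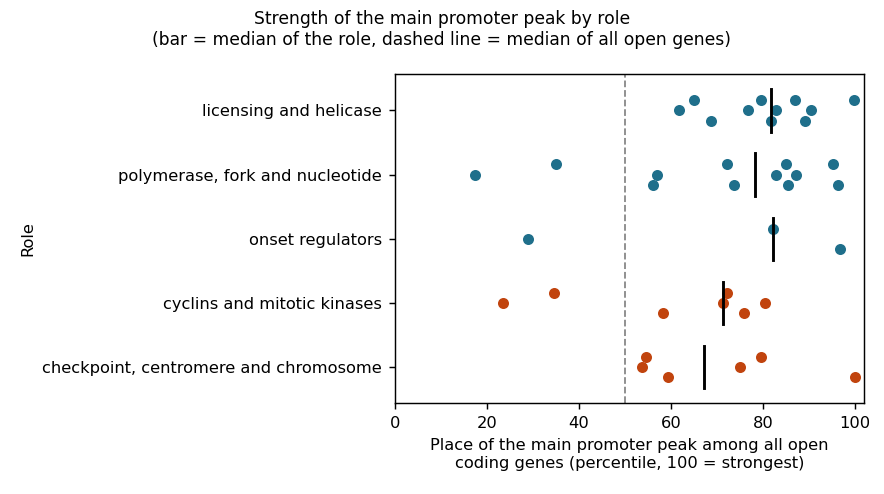
Place of the main promoter peak (horizontal axis, percentile among 12658 open coding genes, 100 the strongest) for each member, by role. Each point is a gene, the bars are the medians of the roles, from 67.2 for checkpoint, centromere and chromosome genes to 82.2 for the onset regulators, and the dashed line is the median of all open genes.

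In the main peaks the E2F words fell mostly in replication genes and the CHR words in mitosis genes. The sequences above were in part chosen for such matches and do not bear on these counts. An E2F match was present in 6 of 26 replication genes, 23.1%, in 1 of 13 mitosis genes, and in 2.5% of all open coding genes. The 6 were Mcm3, Mcm4, Mcm6, Pola1, Pole and Rfc3, and the mitosis gene was Cdk1. A CHR match was present in 0 of 26 replication genes, in 6 of 13 mitosis genes, 46.2%, and in 3.81% of all open coding genes. The 6 were Cdk1, Ccnb2, Plk1, Cdc20, Hjurp and Top2a. Cdk1 was the only member with both, a pair found in 0.134% of open coding genes.

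NF-Y matches were common in both groups. They were present in 13 of 26 replication genes, 50%, and 11 of 13 mitosis genes, 84.6%, against 19.3% of all open coding genes and 31.9% of those at high places. Ccna2 and Hjurp were the mitosis genes without one. At least 2 NF-Y matches in the peak were seen in 6 mitosis genes, 46.2%, and in 1 replication gene, Mcm7, against 4.37% of open coding genes. A CHR and an NF-Y match stood together in 5 mitosis genes, 38.5%, against 0.948%. An E2F and an NF-Y match stood together in 5 replication genes, 19.2%, against 0.537%.

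The other motifs set the members apart less. ETS matches were present in 11 of 39 members, 28.2%, against 14.9% of open coding genes, and SP/KLF matches in 13, 33.3%, against 34.1%. E-boxes were present in 4 members, Mcm2, Pole, Rpa1 and Tyms, 10.3%, against 7.36% of open coding genes. A CRE was present in 1, Mcm5, 2.56%, against 2.86%. No member had an NRF1 match, against 1.07% of open coding genes. None of the 8 motifs was found in the peaks of Cdc6, Cdt1, Lig1 and Rrm1, 10.3% of members, against 37.3% of open coding genes. The peaks of the members had a median GC content of 63.3% and 15 CpG, against 65.3% and 13 over all open coding genes.

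Around the start, beyond the peak window, the same words were more frequent. In the 300 bp window 13 of 26 replication genes had an E2F match, 50%, against 7.69% of mitosis genes and 4.46% of open coding genes. By role these were 8 of the 11 licensing and helicase genes, 72.7%, 4 of the 12 polymerase, fork and nucleotide genes, and E2f1 of the onset regulators. The 8 were Mcm3, Mcm4, Mcm5, Mcm6, Mcm7, Orc1, Cdc6 and Cdt1, so that Mcm2 was the ring subunit without one. The 4 were Pola1, Pole, Rfc3 and Lig1. CHR matches were present in 9 of 13 mitosis genes, 69.2%, in 3 replication genes (Mcm2, Gins1 and E2f2), 11.5%, and in 10.9% of open coding genes, so the replication genes were near the background. Aurka, Aurkb and Mki67 were the mitosis genes added by the wider window. For Gins1 and E2f2 the main peak lies outside this window. For E2f2 the window surrounds a start inside the gene, of a transcript not annotated as protein-coding. The sequence around the start of the E2f2 gene itself was not searched.

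**Figure D3:**
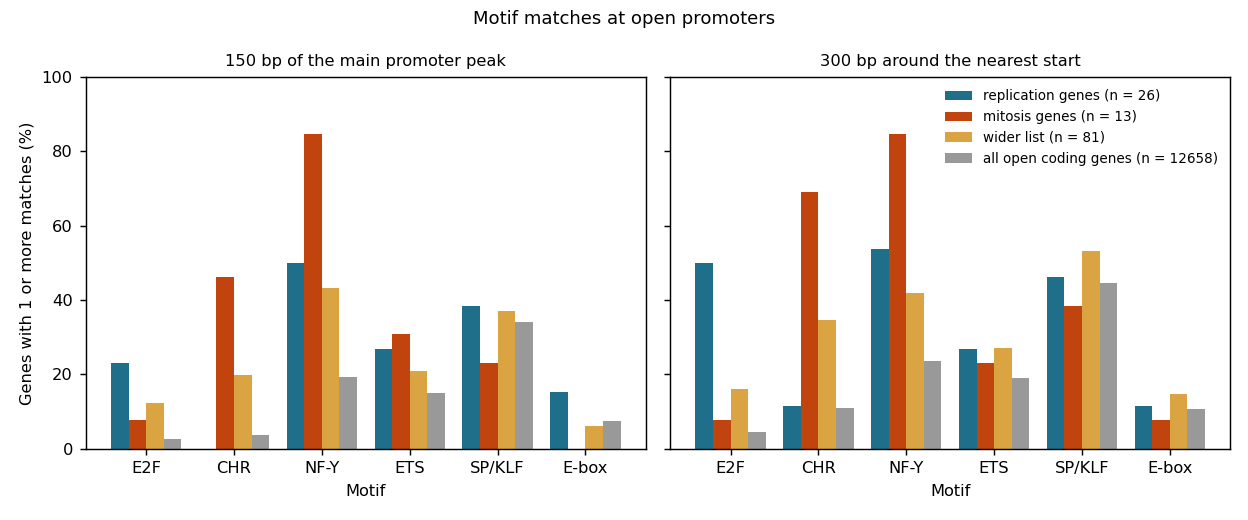
Share of genes with at least 1 match to each motif (vertical axis, %) in the 150 bp main promoter peak (left) and in the 300 bp around the nearest start (right), for replication genes, mitosis genes, a wider list of 81 replication and mitosis genes and all open coding genes. E2F is highest in replication genes (23.1% and 50%), and CHR (46.2% and 69.2%) and NF-Y (84.6% in both) in mitosis genes.

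The E2F matches of replication genes lay close to the start. Their 22 matches had a median position 1.5 bp past the start, with a range from −226.5 to 43.5, and 13 of them lay within 50 bp of it. In Mcm3, Orc1, Cdc6, Cdt1, Pole, Rfc3, Lig1 and E2f1 every E2F match lay past the start. NF-Y matches lay further upstream, with a median of −53.0 bp in both groups. The 13 CHR matches of mitosis genes had a median of −42.5 bp, with a range from −205.5 to 28.5. Of these, 7 lay within 50 bp of the start. Matches stood at −0.5 bp in Aurka and at −0.5 and −171.5 bp in Ccnb2. Others lay further upstream, at −127.5 bp in Aurkb and −205.5 bp in Hjurp.

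Neighbouring NF-Y matches in 5 mitosis genes were 27 to 33 bp apart. The distance between the middles of neighbouring matches was 30 bp in Aurkb, 32 in Aurka, 32 in Ccnb1, 33 in Ccnb2, 27 in Mki67, 23 in Cenpa and 45 in Cdc20. Top2a had 4 NF-Y matches, at distances of 129, 22 and 18 bp. In replication genes most distances were longer, 121 bp in E2f2, 87 in Mcm3, 75 in Mcm4 and 46 in Mcm7, with Rpa2 at 147 and 32. The E2f2 distance comes from the window around a start inside the gene. The number of pairs is small and the distances were not tested.

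**Figure D4:**
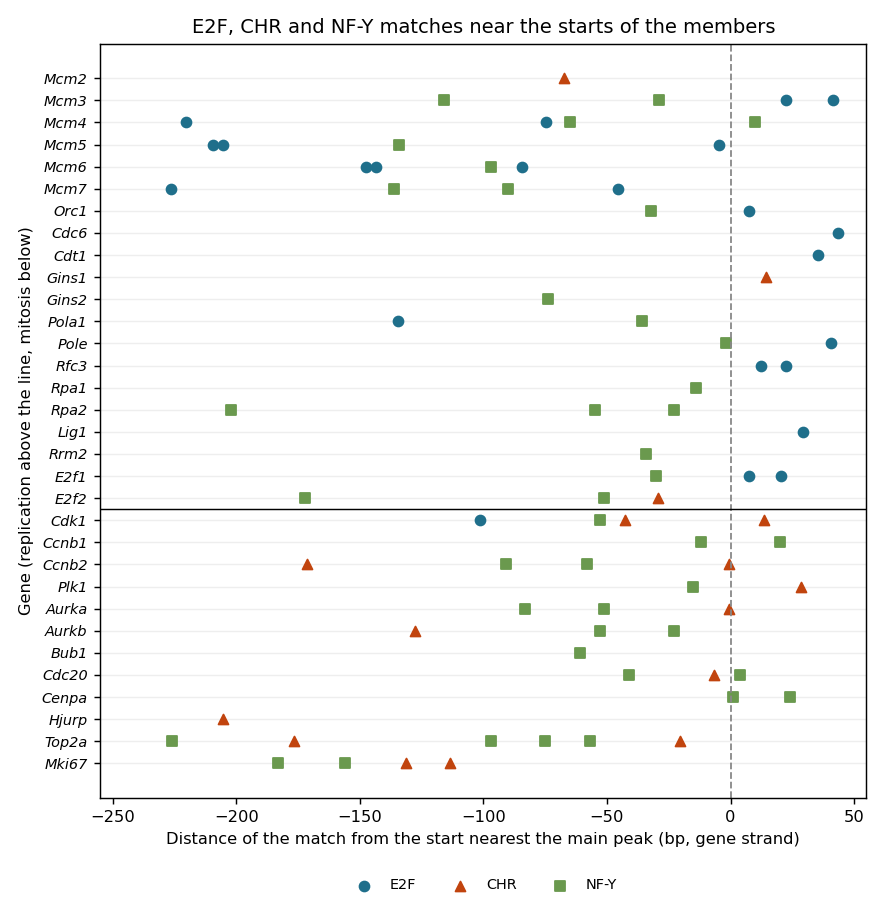
Position of every E2F (circles), CHR (triangles) and NF-Y (squares) match within 300 bp (horizontal axis, distance in bp of the middle of the match from the start nearest the main peak, on the strand of the gene) for the members that have one. E2F matches fall in 13 replication genes above the line and 1 mitosis gene, Cdk1, and CHR matches in 9 mitosis genes below it and 3 replication genes, Mcm2, Gins1 and E2f2.

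The main peaks lay near starts of the genes. In 35 of 39 members, 89.7%, the centre of the peak was within 150 bp of an annotated start, against 77.6% of open coding genes, and the median centre was 66.5 bp upstream, at −66.5, against −34.5 for all. It was −73.0 in replication genes and −52.5 in mitosis genes. The 4 members beyond 150 bp were Mcm7 at −152.5, Gins1 at −629.5, E2f2 at −692.5 and Mki67 at −209.5. In Lig1 and E2f2 the main peak was over 1 kb from the start of the gene itself, at 1467.5 and 7696.5 bp. The Lig1 peak lay at −75.5 bp from the start of another annotated transcript.

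Some of these promoters lie close to a start of another gene on the opposite strand. Whether the starts of a pair point away from each other was not checked. Another coding gene started within 1 kb on the opposite strand for 10 of 39 members, 25.6%, against 18.2% of open coding genes. The distances were 28 bp for Hjurp and Trpm8, 49 for Fen1 and Tmem258, 87 for Orc1 and Prpf38a, 105 for Lig1 and Zswim9 and 109 for Rpa1 and Smyd4. They were 120 bp for Pole and Pxmp2, 146 for Aurka and Cstf1, 184 for Mcm7 and Ap4m1, 466 for Mcm4 and Prkdc and 659 for Gins1 and Abhd12. For these 10 genes the peak cannot be assigned to either gene of the pair alone, and this includes Hjurp, the strongest.

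The hotspots gave little further separation. Their deposited −log10 q, which stops at 100, was at that ceiling for all 39 members in replicate 1, where 99.5% of open coding genes were, and for 38 in replicate 2, 97.4%, against 83.6%. The exception was Aurkb, with a −log10 q of 2.18 in replicate 2 and a widest promoter hotspot of only 138 bp. The widest promoter hotspots of the members had a median width of 1488 bp in replicate 1, against 1495 for all open genes, and of 678 bp in replicate 2, against 646. E2f1 had the broadest in replicate 1, 3422 bp, and Mcm7 in replicate 2, 1639 bp. Pcna had the narrowest in replicate 1, 545 bp, although its peak was among the strongest. Several replicate 1 promoter peaks that overlapped a replicate 2 peak were present in 21 members, 53.8%, against 47.3% of open coding genes. In Gins2, 2 such replicate 1 peaks overlapped the same 1 replicate 2 peak.

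Away from promoters the members had few shared sites, and whether they had more than the typical gene depended on the window. Such sites were counted more than 1 kb from every coding start, from 20 kb before a gene to 20 kb after it. A shared site is a replicate 1 window that overlaps a replicate 2 peak, and windows that overlap each other each count. The median was 2 shared sites against 1 over all coding genes, and 9 against 7 in the replicate 1 list. Within 10 kb the shared median was 1 for both. At least 1 such site was present for 32 of 39 members, 82.1%, against 68.9% of coding genes. These backgrounds cover all coding genes, of which 58.2% had an open promoter, while all 39 members had one. The 7 members with none were Cdc20, Ccnb1, Rrm1, Lig1, Orc1, Ccna2 and Mcm7. The promoters of Ccnb1, Rrm1, Orc1 and Mcm7 were nevertheless at high places.

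**Figure D5:**
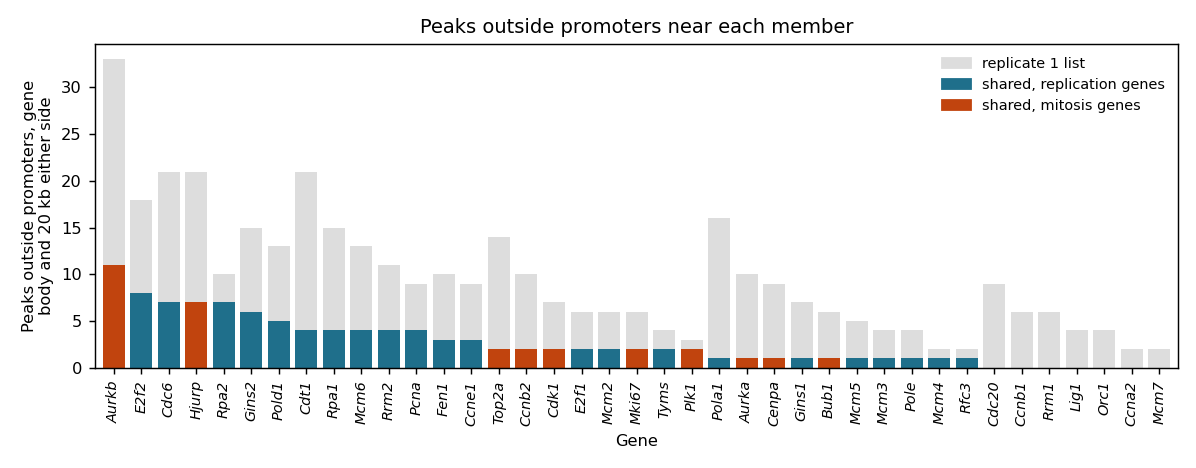
Number of peaks outside promoters, from 20 kb before the gene to 20 kb after it (vertical axis) for each member, in the replicate 1 list (grey) and shared by both lists (coloured). Aurkb has the most, 11 shared of 33 in replicate 1, and 7 members have none shared.

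Aurkb, whose own promoter was among the weaker, had 11 shared sites around it, the most of any member. The strongest lay at −3.90 kb from its start, at chr11:69041676-69041825, with scores of 146 and 79, both above the 143 and 61 of the promoter. E2f2 had 8, of which 4 lay in its introns. Those at 5.48, 7.28 and 13.2 kb past the start each held a match to the RUNX words (TGTGGTTT or TGTGGTTA), which name a family of blood cell factors. The intron site at 5.48 kb, chr4:136177796-136177945, scored 145 and 61. Cdc6 had 7, of which the strongest within the gene lay 10.6 kb past the start with scores of 148 and 59, and the furthest lay in an intron of the neighbour Rara.

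The strongest site outside promoters near any member lay 22.4 kb past the start of Ccne1, downstream of the gene, at chr7:38085036-38085185. It scored 150 and 97, against 149 and 92 for the Ccne1 promoter. A site at −19.6 kb from the start of Mki67, at chr7:135735916-135736065, scored 149 and 82. The Pold1 window held a site with scores of 149 and 80 in an exon of Spib, a gene of an ETS family factor of immune cells, and the Rpa2 window held one with scores of 147 and 81 in an intron of Themis2. Which gene such a site acts on was not tested.

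The 103 shared sites outside promoters were different replicate 1 windows, with none counted for more than 1 member. Some of these windows overlap each other, as near Tyms and Aurkb, so they are not all separate places. The overlapping windows near Tyms both held an AP-1 match. There were 47 in introns, 18 in exons and 38 between genes. Their median scores were 126 in replicate 1 and 45 in replicate 2, against 116 and 32 over all 42080 shared sites outside promoters. The motifs of blood cell factors and of CTCF were added after the promoter motifs, and most had shares near those of all such sites. RUNX was at 4.85% against 4.75%, C/EBP (TTGCGCAA, TTGCACAA or TTGTGCAA) at 1.94% against 2.40%, ETS at 2.91% against 2.56% and CTCF at 9.71% against 11.3%. PU.1 (GAGGAAGT) was lower than its background, at 3.88% against 7.49%, with only 4 sites. AP-1 (TGACTCA or TGAGTCA) was at 4.85% against 6.42%, with 5 sites.

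A wider list of 81 other replication and mitosis genes gave similar counts of open promoters and lower places. All 81 had a shared promoter peak, beside the 58.2% of coding genes, with a median place of 65.3 and 30 at high places, 37.0%, while 19 lay below the middle. The strongest were E2f8, a repressive E2F factor, with scores of 150 and 102 and a place of 97.8, and Pold2, an accessory subunit of polymerase delta, with 149 and 108 and a place of 96.8. Orc6 and Pold3, subunits of the origin recognition complex and of polymerase delta, each scored 150 and 100, a place of 96.2. Among the genes that came next, tied at 150 and 98, were Cdc25a, Cenpf, Cks2, Ncapg and Orc4. Polymerase delta was thus represented at the top by its catalytic subunit Pold1 and by both accessory subunits of the wider list. In the peaks of the wider list NF-Y was at 43.2%, E2F at 12.3% and CHR at 19.8%, beside 61.5%, 17.9% and 15.4% of the 39 members. The order of the lists turned with the words: E2F words without their first T gave 29.6% for the wider list and 20.5% for the members, against 11.0% of open coding genes. CHR with TTCGAA added gave 19.8% and 20.5%, against 4.65%.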

How the data were processed

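DNase-seq of 4 libraries of mouse acute myeloid leukemia cells was analysed from the lists that the authors deposited, on assembly mm10 per the labels. Text deposited with the samples ties each list to a biological replicate whose 2 libraries were pooled. The authors deposited a whole-number score per peak and a −log10 q value per hotspot. Caller, settings and depth were not given in the sources used here. The precision that depth gives is therefore unknown.

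Repeated peaks (48 and 5) were kept once, and 61881 replicate 1 peaks overlapped a replicate 2 peak by at least 1 bp. Genes and starts came from GENCODE M21, sequences from the mm10 genome (samtools 1.23.1), and tables were made in Python 3.11.15 with pandas 2.3.3 and numpy 2.4.6. Percentiles were taken within each list. The scripts were tested on simulated data.

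The members and lists were chosen with earlier results of these data known. All 39 members are accounted for. Of the wider list, genes without a shared promoter peak and the 5 strongest, with ties, were to be named. Peaks printed were the strongest of 4 roles, the weakest, and 3 with E2F or CHR beside another motif. A further sequence and a gene that these rules select are not reported here. Alternatives were other windows, overlaps, stricter peaks, each list alone, lists of equal length, other starts and other motif words.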

Additional observations from a re-analysis of the deposited data

How the results depend on the processing

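The count of members with an open promoter was 39 under all 8 alternatives for windows, overlap, threshold, lists and starts, with a background of 51.1% to 71.1%. The wider list stayed at 81, or 79 with an overlap of 50% of both peaks, which lost Bub3 and Ndc80. The median place of 75.9 was 74.6 with a promoter window of 500 bp and 74.7 with starts of coding transcripts only, and 75.1 and 76.6 in the replicate 1 and replicate 2 lists alone. The gap between the groups depends on the list: the medians of replication and mitosis genes were 83.8 and 75.1 in replicate 1 alone and 78.4 and 63.1 in replicate 2 alone. The median of 2 shared sites outside promoters was 1 within 10 kb (1 over all genes), 5 within 50 kb (3) and 9 in replicate 1 alone (7).

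Motif counts depend on the window and the words. In 300 bp around the start, E2F rose from 6 to 13 replication genes and from 7 to 14 members, and CHR from 0 to 3 replication genes, 6 to 9 mitosis genes and 6 to 12 members. For replication genes the CHR share went from 0%, under the 3.81% of open coding genes, to 11.5%, beside 10.9%. With TTCGAA added, CHR was found in 1 replication gene, 3.85%, 7 mitosis genes and 8 members, against 4.65% of open coding genes. With E2F words of 7 letters, 2 mitosis genes had one and the background in the peak rose to 11.0%, against 20.5% of members and 29.6% of the wider list, which was below the members with words of 8 letters. For CHR the members, below the wider list with TTTGAA alone, passed it with TTCGAA added, at 20.5% against 19.8%. The shorter words in 300 bp, an alternative chosen after seeing the data, gave 16 replication genes, 3 mitosis genes and 19 members, with a background of 18.2%. No paired analysis was possible because there was 1 list per biological replicate and no groups to compare.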
